A study of Mus musculus with 12 samples.

Results

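The libraries described here are those of a meningeal preparation that held the least Ttr, the transthyretin transcript of choroid plexus epithelium. They were selected on a measured value: each deposited log2 value was turned back to a linear amount, and libraries in which Ttr made up less than 2% of the summed amount were set against the rest. By this rule 3 of 12 libraries were low, 1 in each of the 3 groups, and 9 were not. The question was which transcripts go with choroid plexus RNA in cells prepared from the meninges.

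The study measured messenger RNA of cells described as the lining cells of meningeal lymphatic vessels, enriched with magnetic beads. Its 12 libraries bear the titles SJL_B6, AD_B6 and AD_TG, with replicates 1 to 4 in each. All are labelled strain C57BL/6, age 20 weeks and tissue Meninge, the labels do not spell out what the titles stand for, and no allele, agent or treatment is named beyond them. The design text gives 3 to 4 mice for each strain, and nothing says whether the 4 libraries of a title came from separate animals, so p-values measure only the spread between these samples. From 500 ng of total RNA per sample, extracted with Trizol, libraries were made with Lexogen QuantSeq, a kit that reads transcripts near their 3' ends.

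The choroid plexus is a fringe of folded tissue inside the brain ventricles. Its epithelium makes cerebrospinal fluid by moving salt, bicarbonate and water from the blood side to the ventricle side, and it secretes carrier proteins, of which transthyretin, a carrier of thyroid hormone and of retinol-binding protein, is the most abundant. The tissue lies close to the membranes of the brain, and its transcripts are commonly found in preparations of neighbouring tissue.

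In the low libraries Ttr made up 0.162% of SJL_B6 replicate 2, 0.244% of AD_B6 replicate 1 and 1.53% of AD_TG replicate 3. In the other 9 libraries it made up 2.37% to 8.30%. The library just inside the limit was thus AD_TG replicate 3 and the library just outside it AD_B6 replicate 2, at 2.37%. On the deposited log2 scale, which is used below unless another unit is given, Ttr stood at 13.38, 13.92 and 16.59 in the low libraries and at 17.29 to 19.18 in the rest. These values chose the libraries and are given as a description.

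**Figure D1:**
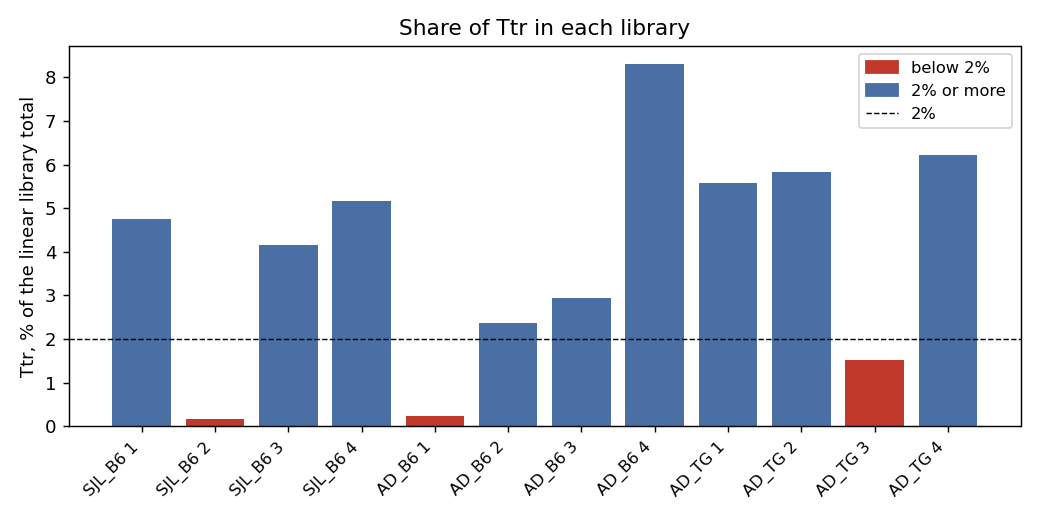
Share of Ttr in the linear total of each of the 12 libraries, in percent, with the limit of 2% as a dashed line. The 3 libraries below it hold 0.162 to 1.53% and the other 9 hold 2.37 to 8.30%.

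Estimated assigned reads ran from 6266397 to 9301243 in the low libraries and from 4024142 to 9312833 in the others, and genes with reads from 11156 to 11579 and from 8748 to 12217. The share of Rn45s, the ribosomal RNA precursor, ran from 5.57 to 8.09% and from 4.92 to 13.8%. The library with 8748 genes with reads was AD_B6 replicate 3, at 8918368 estimated reads, and all other libraries had 10438 or more. With the low label moved among the 4 libraries of each group (64 arrangements, smallest possible p of 0.0156), the exact two-sided permutation test gave p = 0.766 for reads, 0.469 for genes with reads, 0.328 for the Rn45s share and 0.125 for the linear total. Adjusted over these 4 measures, the smallest p for a single measure could not pass 0.05, so this test does not show that the sides were alike in depth. Lymphatic endothelial genes mark the cells named in the labels. Together 15 of them made up 0.0681 to 0.0864% of the low libraries and 0.0498 to 0.084% of the others. Members differed widely. Prox1, the transcription factor that sets lymphatic identity, had a read in 0 of the 3 low libraries and in 2 of the 9 others. Flt4, Mmrn1, Ccl21a and Reln each had reads in 1 of the 3 low libraries, and in 5, 5, 8 and 3 of the 9 others. Itga9 had reads in 2 and 7. Nr2f2, Pdpn, Stab1, Nrp2 and Foxc2 had reads in all 12 libraries. Which cells the summed share came from was not tested.

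Limma, fitted to 12867 genes with the titles as a covariate and without Ttr, called 25 genes lower in the low libraries (0.194% of those tested) and 1 higher (0.00777%) at an adjusted p below 0.05. At an unadjusted p below 0.05 there were 385 lower and 204 higher. Of the 25 genes that were lower, 13 belonged to lists of 70 choroid plexus genes, which encode proteins that this epithelium secretes, the pumps and channels with which it makes fluid, its receptors and its junctions. Over all genes tested the difference had a median of 0.21, so most genes stood slightly higher in the low libraries, and 0.09 after each library's median was subtracted. In bulk samples, fewer cells of a type and less RNA per cell cannot be told apart.

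The count of calls moved with single libraries. Without each of the 3 low libraries it was 10 (SJL_B6 replicate 2), 14 (AD_B6 replicate 1) and 34 (AD_TG replicate 3). Without libraries of the other side it was 16 (SJL_B6 replicate 3), 16 (AD_TG replicate 2) and 45 (AD_B6 replicate 3). The choroid plexus genes among them numbered 4 in place of 13 without SJL_B6 replicate 2, 5 without AD_B6 replicate 1 and 15 without AD_TG replicate 3. Since the libraries were chosen by a choroid plexus transcript, a lower level of its companions is not independent evidence that this tissue was the source.

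**Figure D2:**
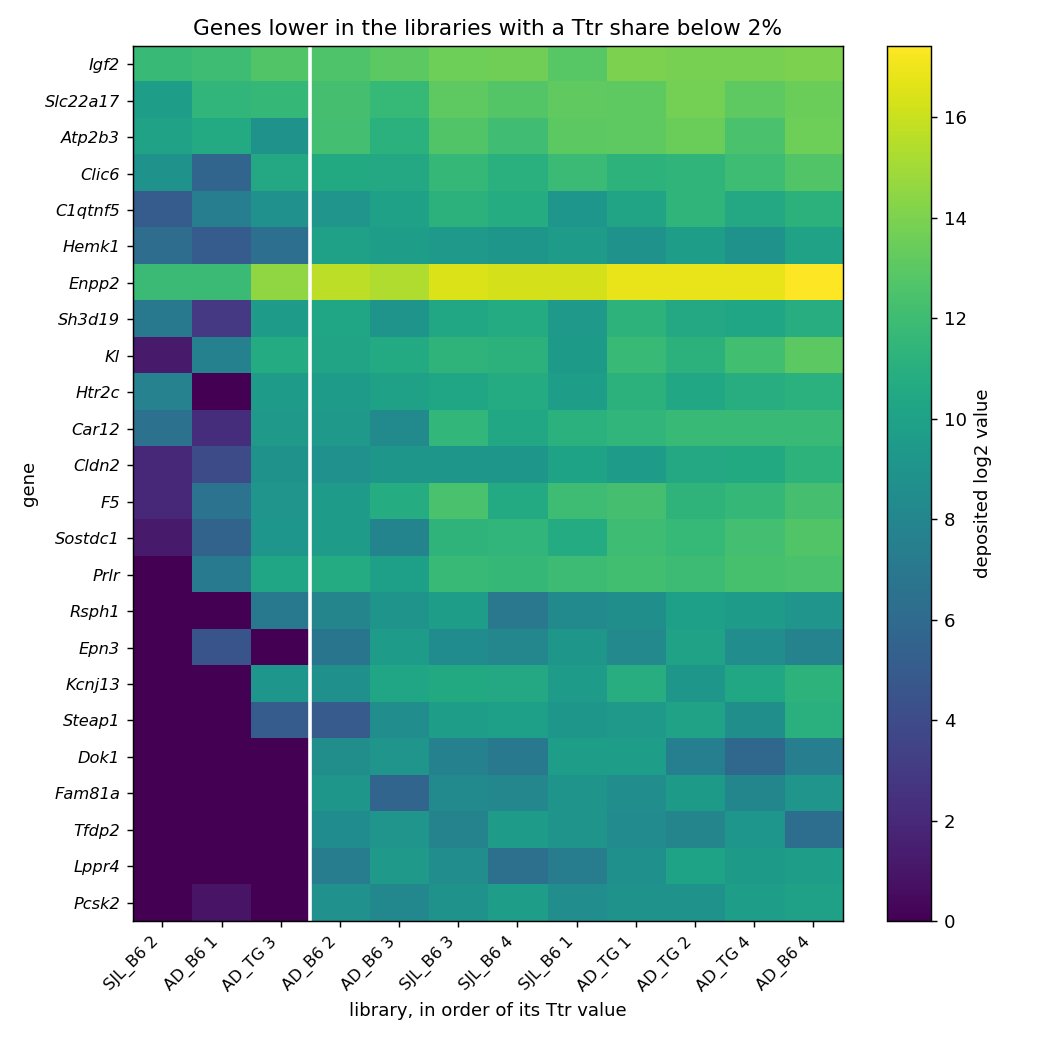
Deposited log2 values (colour) of 24 of the 25 genes that were lower, one row per gene, in the 12 libraries ordered by Ttr, with the 3 low libraries left of the white line. Enpp2 is the brightest row and is graded across all libraries, whereas Pcsk2, Lppr4, Tfdp2, Fam81a and Dok1 are dark in all 3 low libraries.

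Among the 12 secreted proteins of the choroid plexus lists, 11 were lower in the low libraries and 4 passed. Enpp2 encodes autotaxin, the secreted enzyme that makes lysophosphatidic acid. It stood at 11.86 in SJL_B6 replicate 2, 11.87 in AD_B6 replicate 1 and 14.50 in AD_TG replicate 3, against 15.32 to 17.42 in the other 9 libraries (median 16.50). The groups did not overlap, and the step between the first pair of low libraries and AD_TG replicate 3 followed that of Ttr. The difference was -3.71 (SE 0.30, 95% interval -4.33 to -3.10), a level 13.1-fold lower, with a limma adjusted p of 4.37e-08, and it passed in all 21 alternative settings tried (other filters, scalings and covariates, and each library left out).

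F5, which encodes coagulation factor V, stood at 1.93, 6.66 and 9.08 in the same order of low libraries, against 9.57 to 12.44 (median 11.59). No low library reached any of the others, although AD_TG replicate 3 lay next to the lowest of them (limma difference -5.55, SE 0.82, adjusted p = 0.00192). Sostdc1 encodes a secreted inhibitor of BMP and Wnt signalling. It stood at 1.26, 5.53 and 9.16, against 7.87 to 12.72, so AD_TG replicate 3 lay inside the range of the others (difference -5.77, SE 0.92, limma adjusted p = 0.00312). Igf2, the gene of insulin-like growth factor 2, changed least of the 4: 11.77, 12.04 and 12.70 against 12.64 to 13.99 (median 13.66), a difference of -1.33 (SE 0.24, limma adjusted p = 0.00897), or 2.51-fold lower. Meningeal fibroblasts are also known to make Igf2.

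The other 8 secreted proteins did not pass. The augurin gene Ecrg4, listed as 1500015O10Rik, differed by -1.05 (SE 0.29), Igfbp2, which binds insulin-like growth factors, by -1.01 (SE 0.47), and Clu, the gene of clusterin, by -0.59 (SE 0.27). Cst3, the gene of the protease inhibitor cystatin C, stood at 13.94, 13.07 and 13.87 against 12.54 to 14.27. Its difference was 0.12 (95% interval -0.42 to 0.67), and its sign changed without SJL_B6 replicate 2 (-0.14). Many cell types make cystatin C and clusterin.

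All 18 genes of ion and water transport were lower, and 3 passed. Kcnj13 encodes Kir7.1, a potassium channel of the ventricle-facing membrane. It was listed at 0 in SJL_B6 replicate 2 and AD_B6 replicate 1 and stood at 9.18 in AD_TG replicate 3, against 8.74 to 11.25 (median 10.39) in the others (limma adjusted p = 0.00543). AD_TG replicate 3 was thus inside the range of the other libraries and the other low libraries had no read of the gene. Car12, a membrane carbonic anhydrase, stood at 6.50, 2.25 and 9.45 against 8.25 to 11.82 (difference -4.78, SE 0.76, limma adjusted p = 0.00312). Clic6, a chloride intracellular channel protein of this epithelium, stood at 8.89, 5.67 and 10.48 against 10.52 to 12.67, without overlap (difference -3.10, SE 0.58, limma adjusted p = 0.0135).

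The other 15 genes of this list did not pass. Trpm3, a cation channel, stood at 5.01, 4.998 and 8.69 against 5.60 to 11.57 and missed the threshold (limma adjusted p = 0.054). Kcne2, a potassium channel subunit, was listed at 0 in the first pair of low libraries and stood at 4.68 in AD_TG replicate 3, against 2.13 to 9.49 (limma adjusted p = 0.169). Slc4a5, a sodium bicarbonate cotransporter, differed by -1.66 (SE 0.56), and Atp1b1, the beta subunit of the sodium pump, by -1.11 (SE 0.28). Cab39l, a scaffold of the kinases that regulate salt transport, stood at 8.64 to 10.23 against 10.27 to 12.14, with no overlap, and differed by -1.79 (SE 0.42, limma adjusted p = 0.083). Aqp1, the water channel, stood at 9.08, 9.64 and 10.53 against 8.09 to 11.38, a difference of -0.50 (95% interval -1.71 to 0.70) that was 0.0027 without SJL_B6 replicate 2.

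Of 18 receptors and nutrient carriers, 17 could be tested, 14 were lower and 4 passed. Prlr, the prolactin receptor, was listed at 0 in SJL_B6 replicate 2 and stood at 7.23 and 10.32 in the other low libraries, against 9.86 to 12.39 (limma adjusted p = 0.00627). Kl encodes klotho, the co-receptor of FGF23, and stood at 1.26, 7.68 and 10.69 against 9.46 to 13.03 (difference -4.67, SE 0.91, limma adjusted p = 0.0191). Htr2c, the serotonin receptor 2C that this epithelium carries at high density, stood at 7.73, was listed at 0 in AD_B6 replicate 1 and stood at 9.55 in AD_TG replicate 3, all below the 9.60 to 11.22 of the others (limma adjusted p = 0.0399). Htr2c passed in 7 of 20 alternatives.

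Folr1, the folate receptor through which folate enters the cerebrospinal fluid, was listed at 0 in SJL_B6 replicate 2, stood at 8.56 and 9.40 in the other low libraries and at 8.80 to 11.82 in the rest (limma adjusted p = 0.054). Ace, the angiotensin-converting enzyme, differed by -2.33 (SE 0.76, limma adjusted p = 0.649). The 3 members that were higher were the transferrin receptor gene Tfrc, the vitamin C transporter gene Slc23a2 and the efflux pump gene Abcc1, none of which passed. Lrp2, the gene of the endocytic receptor megalin, was not tested. It reached the minimum amount of the filter in 2 libraries, 1 low (10.81 on the log2 scale in AD_B6 replicate 1) and 1 other (11.94 in SJL_B6 replicate 1), and stood at 0.877, about 1 read, in SJL_B6 replicate 4.

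None of the 6 transcription factors passed, and 4 were lower. Otx2, which specifies choroid plexus but also the pineal gland and photoreceptors, stood at 11.90, 11.83 and 10.61 in the low libraries against 10.28 to 11.59. SJL_B6 replicate 2 and AD_B6 replicate 1, which held the least Ttr, thus had the highest Otx2 of the 12 (difference 0.33, 95% interval -0.45 to 1.11), and the sign changed without SJL_B6 replicate 2 (-0.034). Lmx1a, a factor of the roof plate from which choroid plexus forms, was listed at 0 or below 1 read in all 3 low libraries and in 2 of the others, AD_B6 replicates 2 and 3. Msx1, another factor of that lineage, stood at 8.83, 6.97 and 10.61 against 8.75 to 11.48 (difference -1.46, SE 0.64, limma adjusted p = 0.922).

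Of 16 genes of junctions, cytoskeleton and other functions, 14 were lower and 2 passed. Cldn2, the claudin that makes the epithelium leaky to cations and water, stood at 1.93, 4.08 and 8.87 against 8.82 to 11.23 (difference -4.88, SE 0.92, limma adjusted p = 0.0135). Steap1, a multi-pass protein of the cell membrane, was listed at 0 in SJL_B6 replicate 2 and AD_B6 replicate 1 and stood at 5.08 in AD_TG replicate 3, against 4.996 to 11.07 (median 9.41; limma adjusted p = 0.00971). For both genes AD_TG replicate 3 was level with the lowest of the other libraries. Tmem72, a membrane protein of this epithelium, stood at 7.13 to 8.48 in the low libraries and at 8.74 to 11.31 in the others, apart from AD_B6 replicate 3, where it was listed at 0 (limma adjusted p = 0.936).

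Over all 5 lists, 61 of the 69 tested members (88.4%) were lower, beside 43.0% of all genes tested, with a median difference of -1.51. At an unadjusted p below 0.05 there were 35 lower members and 0 higher. In 6 members every low library lay below every other library, as in 64 of all genes tested (0.497%). The median was -1.05 over the 45 members with reads in all 12 libraries, a set that leaves out the genes listed at 0. By list, the medians were -2.60 for receptors and nutrient carriers, -1.85 for junction genes, -1.23 for ion and water transport, -0.99 for secreted proteins and -0.75 for transcription factors. Without Ttr, the 70 genes together made up 0.984 to 1.67% of the low libraries and 2.07 to 5.15% of the others.

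Of the 25 genes that were lower, 17 had an entry among the RefSeq promoters of mouse build GRCm38.p6, with 23 windows from 250 bases before to 50 after a gene's start. Enpp2, which had the smallest adjusted p, Atp2b3, Sostdc1 and Clic6 were among those without an entry and could not be searched. The 23 windows were searched on both strands for TAATCC, the core letters bound by OTX-type homeodomain factors, whose reverse complement is GGATTA. It was found in 2 of the 23 windows and in 2320 of all 32851 windows of the same length (7.06%). The windows of C1qtnf5 and Igf2 that hold it are shown with the match in capitals, followed by those of F5 and Kcnj13, which were among the genes with the smallest adjusted p and hold no match. They lie at chr9:44101520-44101819 (plus strand, C1qtnf5), chr7:142658755-142659054 (minus strand, 1 of 4 windows of Igf2), chr1:164151585-164151884 (plus strand, F5) and chr1:87394680-87394979 (minus strand, Kcnj13), and each is written 5' to 3' in the direction of the gene.
C1qtnf5: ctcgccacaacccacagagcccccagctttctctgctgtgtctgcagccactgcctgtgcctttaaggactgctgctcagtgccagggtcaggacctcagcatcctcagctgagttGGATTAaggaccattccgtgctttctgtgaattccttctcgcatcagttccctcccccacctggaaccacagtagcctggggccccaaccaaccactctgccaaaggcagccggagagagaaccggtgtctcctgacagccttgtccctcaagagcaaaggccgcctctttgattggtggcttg
Igf2: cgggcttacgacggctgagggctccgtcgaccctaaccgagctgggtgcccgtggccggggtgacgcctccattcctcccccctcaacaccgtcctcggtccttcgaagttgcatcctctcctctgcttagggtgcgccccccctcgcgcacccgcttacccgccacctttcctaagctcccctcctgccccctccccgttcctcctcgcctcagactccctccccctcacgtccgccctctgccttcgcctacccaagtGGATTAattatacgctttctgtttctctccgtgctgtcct
F5: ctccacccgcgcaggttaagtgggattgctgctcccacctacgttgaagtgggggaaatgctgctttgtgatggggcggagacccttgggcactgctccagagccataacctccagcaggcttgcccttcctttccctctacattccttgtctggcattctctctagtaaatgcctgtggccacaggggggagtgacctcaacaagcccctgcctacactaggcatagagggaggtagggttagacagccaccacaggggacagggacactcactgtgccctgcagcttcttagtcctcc
Kcnj13: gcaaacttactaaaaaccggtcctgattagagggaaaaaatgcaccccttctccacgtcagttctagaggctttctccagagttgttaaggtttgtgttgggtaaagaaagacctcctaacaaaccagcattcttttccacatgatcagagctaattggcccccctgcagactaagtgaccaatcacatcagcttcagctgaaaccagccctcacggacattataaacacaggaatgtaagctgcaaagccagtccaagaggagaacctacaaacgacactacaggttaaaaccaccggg
A match is only a run of letters in these windows.

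The remaining 12 genes that were lower belonged to none of the choroid plexus lists. Atp2b3, a calcium pump of the plasma membrane, stood at 10.06, 10.68 and 8.95 against 11.15 to 13.56 (difference -2.74, SE 0.42, limma adjusted p = 0.00217). Slc22a17, a receptor for lipocalin 2, stood at 9.80, 11.45 and 11.62 against 11.66 to 13.77 (difference -1.99, SE 0.35, limma adjusted p = 0.00699). Hemk1, a methyltransferase that acts on translation release factors, stood at 6.19, 5.08 and 6.34 against 8.95 to 10.05 (difference -3.66, SE 0.73, limma adjusted p = 0.0271). None of these 3 genes overlapped between the sides, and in Atp2b3 the lowest value of all was that of AD_TG replicate 3, the low library with the most Ttr.

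Rsph1 encodes a radial spoke protein of motile cilia, which ependymal cells carry. It was listed at 0 in SJL_B6 replicate 2 and AD_B6 replicate 1 and stood at 7.02 in AD_TG replicate 3, against 6.96 to 9.83 (limma adjusted p = 0.0271). It was the only called gene among 14 tested genes of ependyma and motile cilia, of which 8 were lower, with a median of -0.56. The summed share of that list was 0.0202 to 0.0399% in the low libraries and 0.0207 to 0.0816% in the others. Dynlrb2, a dynein light chain of cilia, stood at 0, 7.86 and 8.94 against 2.12 to 10.22, and its difference of -1.22 turned to 1.72 without SJL_B6 replicate 2.

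C1qtnf5, a secreted C1q family protein, stood at 5.07, 7.43 and 8.81 against 9.06 to 11.40 (difference -3.28, SE 0.68, limma adjusted p = 0.0311). It shares a transcript with Mfrp, so reads of these genes may not be separable. Sh3d19, an adaptor protein, stood at 7.07, 2.92 and 9.53 against 8.99 to 11.24 (difference -3.78, SE 0.79, limma adjusted p = 0.0333). They passed in 12 and 9 of 21 alternatives.

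A further 6 genes with a mean below 7 passed and, like C1qtnf5 and Sh3d19, are named after their values were seen. Pcsk2, the prohormone convertase 2 gene, Lppr4, a lipid phosphatase-related gene of neurons, Tfdp2, a partner of E2F factors, Fam81a and Dok1, a docking protein of tyrosine kinases, were listed at 0 or below 1 read in all 3 low libraries, except for Pcsk2 at 0.952, about 1 read, in AD_B6 replicate 1. In the other 9 libraries they ran from 8.11 to 9.98, 6.46 to 10.07, 6.26 to 9.64, 5.66 to 9.51 and 5.90 to 9.69. Epn3, an endocytic epsin, stood at 4.56 in AD_B6 replicate 1 only, against 6.75 to 10.06. The limma adjusted p-values ran from 0.00188 for Pcsk2 to 0.0271 for Epn3 and Dok1. All 6 were without a read in AD_TG replicate 3, which held 1.53% Ttr, and so did not follow the grading of Ttr among the low libraries. All but Epn3 met the filter on low values only through the other 9 libraries, so that a difference was built into their being tested.

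The 1 gene that passed in the other direction was Zfp93, a zinc finger gene, at 7.13, 7.69 and 8.71 in the low libraries whereas none of the other 9 held a full read of it (limma adjusted p = 0.0271). It met the filter, a minimum amount in 3 libraries, only through the low libraries, and so had to differ. It passed in 6 of 19 alternatives. In all, 14 of the 25 genes that were lower showed no overlap between the sides, beside 64 of all genes tested (0.497%). The 25 were called for their difference between these same libraries, so this count is not separate support. In 12 of the 25 at least 1 low library was below 1 on the log2 scale.

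The genes most like Ttr over all 12 libraries were described by Pearson's r with log2 Ttr after removing the mean of each title. The highest were Enpp2 (0.991), Cldn2 (0.980), Steap1 (0.976), Six3 (0.954), Sostdc1 (0.953), Kcnj13 (0.947), F5 (0.944), Rsph1 (0.940), Kcnk1 (0.939) and Car12 (0.934). The low libraries set most of the range of both values, and no p is given. Six3, a homeodomain factor of the forebrain and eye, and Kcnk1, a potassium channel, were outside the choroid plexus lists and missed the threshold (limma adjusted p = 0.083 and 0.1). Six3 was listed at 0 in SJL_B6 replicate 2 and AD_B6 replicate 1 and stood at 8.69 in AD_TG replicate 3, inside the range of 6.20 to 10.27 of the others.

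The amount of Enpp2 relative to Ttr varied little beside that of Ttr itself. On the linear scale there were 34.8, 24.2 and 23.5 units of Enpp2 per 100 units of Ttr in the low libraries and 21.4 to 33.6 in the others, while the Ttr share itself ran from 0.162 to 8.30%. Igf2 did not keep such a ratio: it stood at 32.7, 27.2 and 6.75 per 100 units of Ttr in the low libraries and at 2.01 to 4.65 in the others. Prlr, with 0, 0.964 and 1.30 per 100 units against 0.506 to 1.25, and F5, with 0.0264, 0.649 and 0.548 against 0.471 to 1.93, had ratios in AD_B6 replicate 1 and AD_TG replicate 3 within or next to the range of the others. In AD_B6 replicate 1 other choroid plexus genes fell further than Ttr. Their ratios were 0 (Kcnj13), 0 (Steap1), 0.0242 (Car12), 0.103 (Cldn2) and 0.321 (Clic6). The lowest ratios of the libraries above the limit were 0.142, 0.0193, 0.166, 0.176 and 0.619. Sostdc1 and Kl were within the range of those libraries there, but below it in SJL_B6 replicate 2, at 0.0131 each. Car12 and Clic6 were not below it in SJL_B6 replicate 2, nor was any of these genes in AD_TG replicate 3. Deposited values are per gene and not per length, so ratios between genes are read only across libraries.

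**Figure D3:**
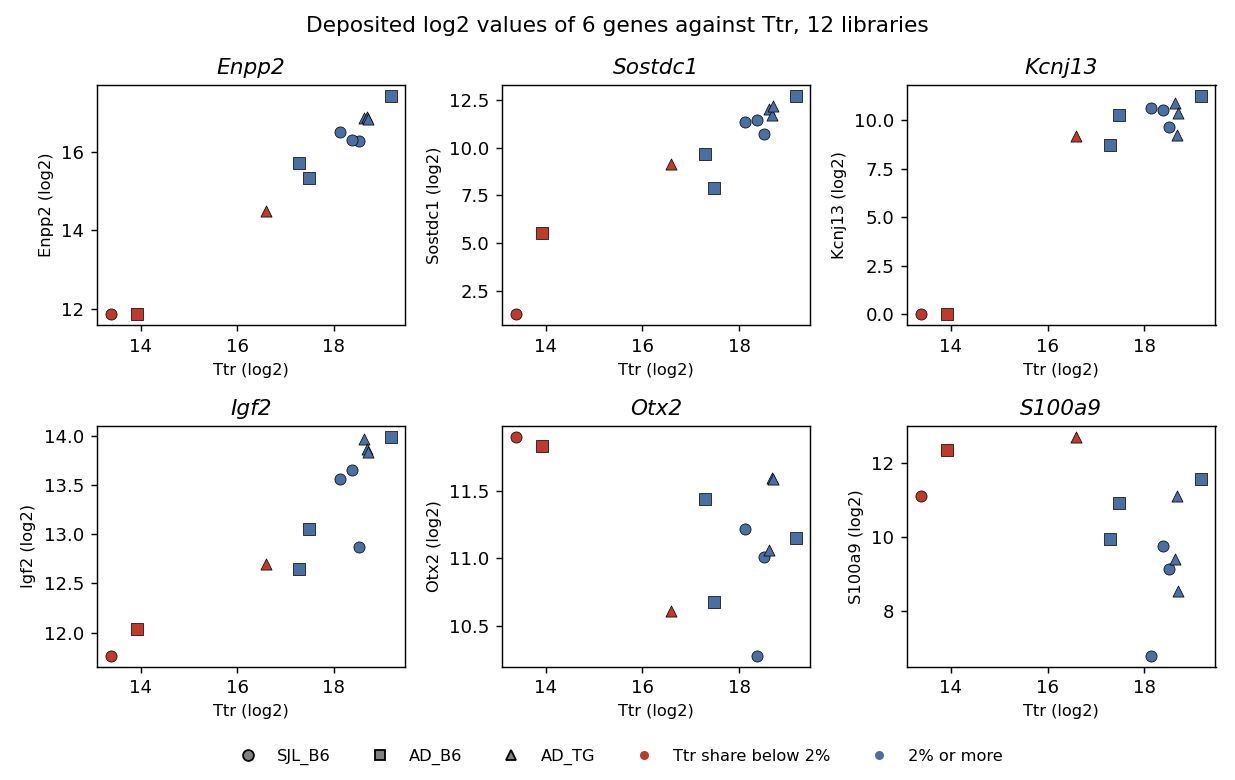
Deposited log2 values of Enpp2, Sostdc1, Kcnj13, Igf2, Otx2 and S100a9 against Ttr in the 12 libraries, with titles as marker shapes and the 3 low libraries in red. Enpp2 rises with Ttr over the whole range, Kcnj13 is at 0 in 2 low libraries and level with the others in AD_TG replicate 3, and Otx2 is highest in the 2 libraries with the least Ttr.

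Whether the genes followed Ttr among the 9 libraries that the limit did not select was fitted as a slope on log2 Ttr, with the titles as a covariate. Limma called 32 genes (0.249%), 2 with a positive slope and 30 with a negative one. Enpp2 had a slope of 0.98 log2 units per log2 unit of Ttr (SE 0.13, limma adjusted p = 0.00488) and was the 1 gene called both here and in the split. It kept its sign but lost this call in 6 of 12 alternatives (limma adjusted p of 0.0523 to 0.119): with 16 as the added constant, and without SJL_B6 replicate 4, AD_B6 replicate 3 or any 1 of AD_TG replicates 1, 2 and 4. The other positive slope was that of Pcolce2, an enhancer of collagen processing. Of the 30 negative slopes, 24 belonged to genes below 1 on the log2 scale in AD_B6 replicate 4, the library with the most Ttr.

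These slopes rested on few libraries. Without AD_B6 replicate 4 limma called 0 genes, with 419 at an unadjusted p below 0.05, and the slope of Enpp2 was -0.87. Without AD_B6 replicate 2 there were 437 calls, 105 negative and 332 positive, and without the titles as a covariate 8, all positive, of which 2 were among the 32. Most calls were thus positive under these settings, and negative in the fit on all 9 libraries with the titles. Without SJL_B6 replicates 1, 3 and 4 there were 10, 9 and 2, and 1 each without AD_TG replicates 1, 2 and 4. Of the choroid plexus genes, 59 of 69 had a positive slope (85.5%, beside 54.1% of all genes tested), with a median of 1.06. Sostdc1 had 1.98 (SE 0.45), Car12 1.51 (SE 0.42), Aqp1 1.56 (SE 0.47), F5 1.10 (SE 0.41) and Kcnj13 0.91 (SE 0.52), none of which passed limma (adjusted p = 0.0782 for Sostdc1 and 0.242 for Car12). Sostdc1 and Car12 passed in 2 alternatives, at limma adjusted p = 0.00684 and 0.0404 without the titles as a covariate and 0.0057 and 0.026 without AD_B6 replicate 2. Cst3 had a negative slope of -0.76 (SE 0.23, limma adjusted p = 0.289). Without AD_B6 replicate 4 the slopes of Sostdc1, Car12, F5 and Kcnj13 were -2.90, -2.10, -0.55 and -0.58.

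In the direction opposite to Ttr, no gene with a mean of 7 or more passed. The 10 with the smallest unadjusted p included S100a9 and S100a8, the calprotectin genes of neutrophils. S100a9 stood at 11.11, 12.34 and 12.69 in the low libraries and at 6.79 to 11.56 (median 9.75) in the others (difference 2.37, SE 0.60, limma adjusted p = 0.157). S100a8 stood at 11.43, 13.25 and 12.88, against a range from 0 in AD_TG replicate 4 to 12.02 (limma adjusted p = 0.818). Only SJL_B6 replicate 2 lay inside the range of the others for both.

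The other 8 were of mixed kinds, with limma adjusted p-values from 0.556 to 0.922. Chgb, the chromogranin B gene of secretory granules, differed by 1.01 (SE 0.32), Csf2ra, the GM-CSF receptor gene, by 1.12 (SE 0.41), and Nsf, a membrane fusion ATPase, by 1.26 (SE 0.47). Kank2, a regulator of the cytoskeleton, differed by 1.08 (SE 0.41), Eya2, a transcriptional co-activator, by 1.42 (SE 0.54), and Cd209f, a lectin gene, by 1.66 (SE 0.66). H2-K1 and H2-Eb1, of antigen presentation, differed by 0.77 (SE 0.29) and 0.61 (SE 0.23), and SJL_B6 replicate 2 was the highest library for both, at 13.30 and 15.40. Eya2, at 10.70 to 10.88 in the low libraries and 8.71 to 10.46 in the others, was the 1 of the 10 without overlap. Of all 12867 genes tested, 65 had no overlap in this direction.

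Markers of other cells moved with the split in varied ways, and their part in the differences of the choroid plexus genes was not tested. Beside the counts that follow, 7329 of all 12867 genes tested were higher in the low libraries, with a median of 0.21. All 11 neutrophil genes were higher in the low libraries (median 2.53) and none passed limma over all genes. They made up 0.104 to 0.321% of the low libraries and 0.0102 to 0.144% of the others. Ngp, a granule protein gene, stood at 7.43, 11.05 and 10.95 against 0.07 to 9.75, and Camp, the cathelicidin gene, at 8.64, 9.72 and 9.47 against 0 to 9.44. Among the 9 other libraries, 10 of the 11 had a positive slope on Ttr, beside 54.1% of all genes tested, the opposite direction to that across the split. Those of S100a9 (0.87, SE 0.66), S100a8 (1.59, SE 1.52), Ngp (1.17, SE 1.44) and Camp (2.88, SE 2.53) did not pass. AD_B6 replicate 4, with the most Ttr, had the highest S100a9 and S100a8 of these libraries, at 11.56 and 12.02. Whether the neutrophil slopes hold without that library was not examined. All 6 tested mast cell genes were higher as well (median 2.17), with shares of 0.0116 to 0.0327% against 0 to 0.0276%.

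All 7 tested MHC class II genes were higher (median 0.50), and 14 of 16 border macrophage genes (median 0.34), without a call. The median over all genes tested was 0.21. SJL_B6 replicate 2 held the highest H2-Ab1, at 13.88, while AD_B6 replicate 1 and AD_TG replicate 3, at 12.24 and 12.65, were inside the range of 11.83 to 13.10 of the others. Of 20 meningeal fibroblast genes, 16 were higher (median 0.57) and Igf2 was the 1 called gene, in the opposite direction. Col1a2, a collagen I chain of fibroblasts, stood at 14.13, 12.66 and 14.15 against 11.98 to 14.53.

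Of 10 tested pineal genes 9 were higher (median 0.68). Tph1, the enzyme that starts the synthesis of serotonin and melatonin, stood at 13.39, 13.67 and 12.71 against 10.44 to 13.77 (difference 1.10, SE 0.46, limma adjusted p = 0.922). The pineal genes made up 0.230 to 0.530% of the low libraries and 0.0557 to 0.577% of the others. Otx2 is a gene of the pineal gland too, and the parts of its level that come from each tissue cannot be told apart.

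Of 13 lymphatic endothelial genes 6 were lower and 7 higher, with a median of 0.11 that became -0.01 after library medians were subtracted, and of 17 pan-endothelial genes 12 were lower (median -0.998). No gene of either list passed. The cytosolic ribosomal protein genes had 14 of 18 members higher (median 0.37), and nuclear genes of oxidative phosphorylation 10 of 17 lower (median -0.13).

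**Figure D4:**
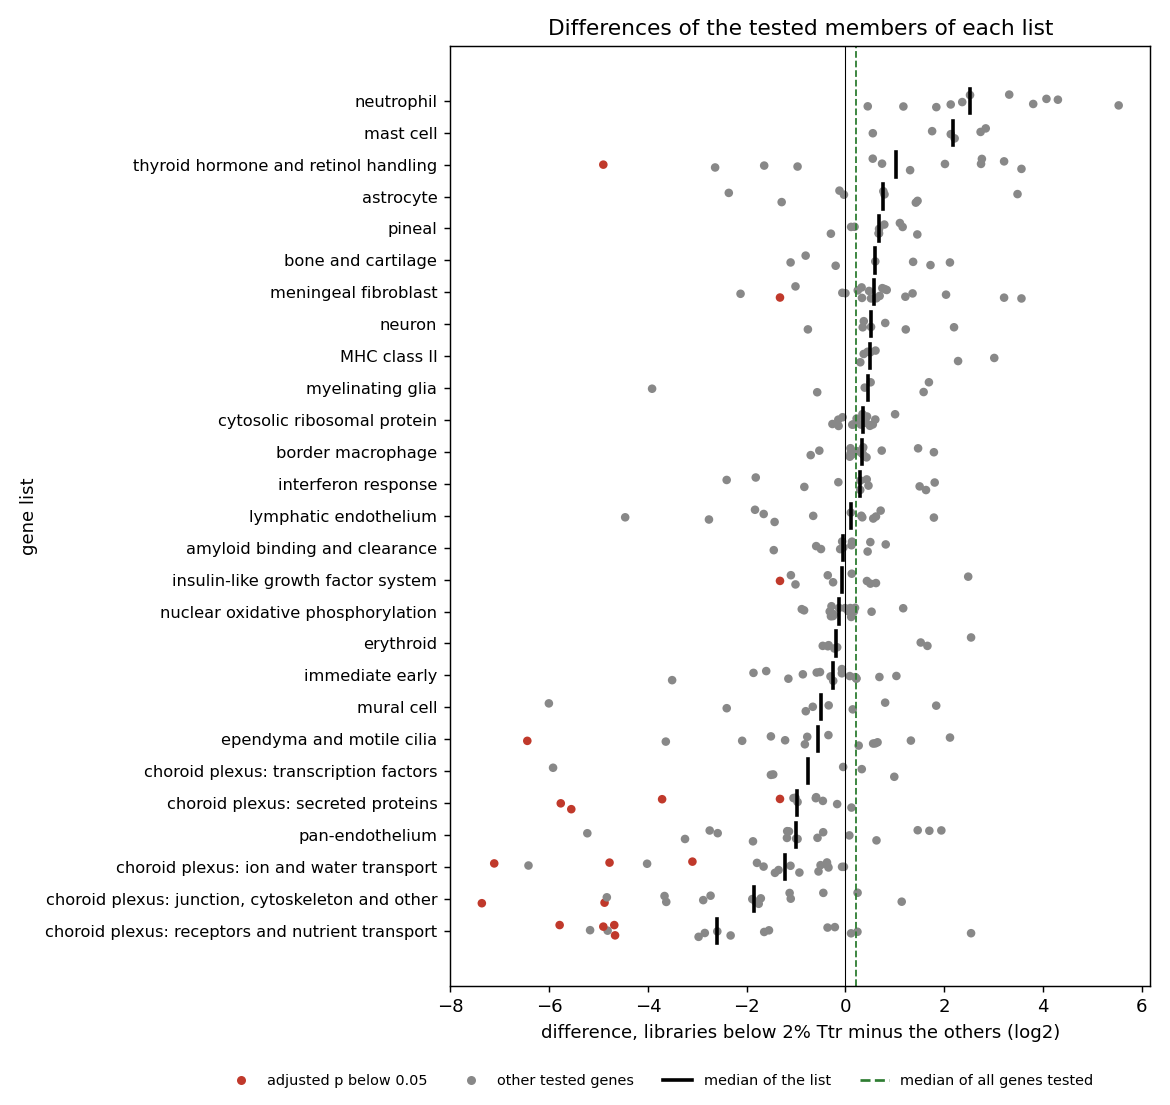
Difference in log2 value (libraries below 2% Ttr minus the others) of each tested member of the lists with at least 5 tested members, ordered by the median of the list. The 5 choroid plexus lists have medians from -0.75 to -2.60, the neutrophil list has the highest median at 2.53, and the dashed line is the median of all genes tested, 0.21.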

How the data were processed

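In each library's file the authors deposited 1 log2 value (log2 of a scaled amount + 1) for each gene symbol. Bowtie2, bedtools and the build hg19 are named, per the submitters' processing notes. That build is human and the organism is mouse, and the counting rule, its strand, the annotation and the scaling are not given in the sources used here, so overlapping genes cannot be separated and no coordinate of the files was used. Each file held 23282 entries, and of 35 repeated symbols only the entry of highest mean was used.

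Values were turned to linear amounts (2 to the power of the value, minus 1). The step between low values was taken as 1 read, which gave 4024142 to 9312833 estimated reads per library. The 2 lowest estimates, of SJL_B6 replicate 3 and AD_TG replicate 1, are the least certain. There 90.9 and 90.8% of low values lay near a whole number of steps, against 95.5 to 100% in the other libraries. A gene had reads at a linear value of 0.3 or more.

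Genes with a linear amount of at least 10 in at least 3 libraries, 12867 without Ttr, were fitted with limma 3.58.1 in R 4.3.3 (lmFit, eBayes with trend) as log2 values, with the titles as a covariate, two-sided, Benjamini-Hochberg threshold 0.05. The minimum of 3 equals the number of low libraries. The fit was tested on shuffled values with known changes. Fold changes are on the log2(value + 1) scale.

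The text names, per direction, the 15 genes with the smallest adjusted p among those that passed with a mean of 7 or more, or, where fewer than 5 passed, the 10 with the smallest unadjusted p; the choroid plexus genes; and list members as examples. The libraries, the 32 lists and these rules were chosen with earlier results of these data known. All 378 list genes matched a symbol; a few genes are counted but not reported here by name. Lists have counts and medians and no test.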

Additional observations from a re-analysis of the deposited data

Results flagged for a closer look

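Among the 9 libraries at 2% Ttr or more, a library stood far from the rest (a gap to its nearest neighbour larger than Dixon's 95% limit) for 10 of the genes named in the text. Of 65 sets examined, chance alone would mark about 5%. AD_B6 replicate 2, which lies just above the 2% limit, was low for Steap1 (4.996, nearest 8.57), Trpm3 (5.604, nearest 10.15) and Ace (6.698, nearest 9.76), and high for Kank2 (12.084, nearest 11.07). AD_B6 replicate 3 was low for Fam81a (5.662, nearest 7.98) and Igfbp2 (9.063, nearest 10.52), and was listed at 0 for Tmem72 (nearest 8.74). Kcne2 stood at 2.131 in SJL_B6 replicate 4 (nearest 7.54). S100a8 was listed at 0 in AD_TG replicate 4 (nearest 7.85), and Ngp stood at 0.07, below 1 read, in SJL_B6 replicate 3 (nearest 5.98).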

How the results depend on the processing

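The 26 genes called by the split became 6 without a filter on low values, 11 among genes with reads in all 12 libraries, 40 with 16 in place of 1 as the added constant and 43 with log2 Ttr as a continuous covariate. With 1 library left out the count ran from 10 to 45. The choroid plexus genes among them, 13, became 1 without a filter and 6 among genes with reads in all 12 libraries, and ran from 4 to 16 with 1 library left out. The 32 slopes became 1 with the constant of 16 and 8 without the titles as a covariate, and ran from 0 to 437 with 1 library left out. Without SJL_B6 replicate 2 the differences of Cst3, Aqp1, Otx2 and Dynlrb2 changed sign, to -0.14, 0.0027, -0.034 and 1.72, and that of Cst3 was -0.0047 without AD_B6 replicate 4. With 1 library left out, their highest or lowest values on the other side of 0 were 0.40 for Cst3, -0.91 for Aqp1, 0.90 for Otx2 and -2.82 for Dynlrb2. Without AD_B6 replicate 4 the slopes of Enpp2, F5, Sostdc1, Car12, Kcnj13 and Igf2 were -0.87, -0.55, -2.90, -2.10, -0.58 and -0.84, and their highest slopes with 1 library left out were 1.14, 1.29, 2.63, 1.91, 1.16 and 0.64. The fewer genes tested or samples fitted are part of these settings, and any other cause was not tested.

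With the replicate number as a block (replicate block), 20 genes were called, all lower, 19 of them among the 26, with 11 choroid plexus genes. The labels do not say that the numbers pair libraries. Same-numbered libraries had correlations of deviations from -0.05 to 0.17 over 12 pairs, and pairs of different number from -0.52 to 0.16. The lowest, -0.52, -0.515 and -0.464, were the pairs among the 3 low libraries, which carry different numbers. The remaining pairs of different number and different title ran from -0.08 to 0.16. For 8 of the 12 libraries the best match had the same number. Pairs within a title, which never share a number, ran from -0.44 to -0.18, so a best match there was out of reach. No chance level was computed, and the count does not show that the numbers pair libraries. A count model on recovered reads was not run, since the deposited values are logarithms. The median 95% interval of a difference reached 3.69 to either side, and 0.897 for genes with a mean of 10 or more.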

Other observations

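Genes of thyroid hormone and retinol handling, the cargo of transthyretin, were higher in the libraries low in Ttr for 8 of 12 members and lower for 4, with a median of 1.03 that was -0.21 among members with reads in all 12 libraries. At an unadjusted p below 0.05 there were 4 lower and 0 higher, 1 of the 4 without overlap between the sides and 1 called (0.194% of all genes tested were called lower). No test of the list was run. Stra6, the receptor of retinol-binding protein, stood at 0.755, 7.90 and 8.94 in the low libraries (SJL_B6 replicate 2, AD_B6 replicate 1, AD_TG replicate 3) against 7.05 to 9.59. Thra and Thrb, the thyroid hormone receptor genes, stood at 7.96 to 9.88 against 7.33 to 9.04, and at 8.58 to 10.47 against 5.59 to 10.65.

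Among 11 tested genes that bind or clear amyloid, 6 were lower and 5 higher (median -0.04), and none was called. Apoe, the apolipoprotein E gene, stood at 14.12 to 14.25 in the low libraries and 13.53 to 14.63 in the others, and App, which encodes the precursor of amyloid, at 12.58 to 12.98 and 12.33 to 13.27.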
